A study of Mus musculus with 12 samples.

Results

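The genes described here encode the TGF-β ligands, their receptors, proteins that hold the ligands in latent form, and a matrix protein named for its induction by TGF-β. They include Ltbp2, which is named for binding latent TGF-β but binds fibrillin fibres instead. They were chosen by symbol and matched to Ensembl identifiers: Tgfb1 (ENSMUSG00000002603), Tgfb2 (ENSMUSG00000039239), Tgfb3 (ENSMUSG00000021253), Tgfbr1 (ENSMUSG00000007613), Tgfbr2 (ENSMUSG00000032440), Tgfbr3 (ENSMUSG00000029287), Ltbp1 (ENSMUSG00000001870), Ltbp2 (ENSMUSG00000002020), Lrrc33 (ENSMUSG00000052384, current symbol Nrros) and Tgfbi (ENSMUSG00000035493). All 10 were found among the 35697 identifiers of the table for sham and TBI and among the 55637 of the table for TBI and zileuton, and all 10 passed the filter on low counts in both comparisons.

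RNA-seq was performed on brain tissue of adult male C57BL/6J mice, which the series describes as pericontusional, with 3 libraries in each of 4 groups. Traumatic brain injury (TBI) was made by controlled cortical impact, in which a piston deforms the exposed cortex, and sham mice had the same surgery without the impact. Libraries carrying a 2018 batch label compared sham with TBI at 7 days after injury. Libraries carrying a 2022 batch label compared TBI with TBI plus zileuton, an inhibitor of 5-lipoxygenase given in corn oil by intraperitoneal injection at 10 mg/kg per day. The 2022 controls are labelled TBI only. The study's text calls the mice compared with zileuton vehicle-treated. The zileuton libraries are named for 7 days, while their source labels read 7, 8 and 9 days. No knockout or transgene was involved, and the labels do not tie a library to a single animal, so p-values measure the spread between these libraries.

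TGF-β ligands are secreted in a latent complex with their own propeptide, which latent TGF-β binding proteins (LTBPs) fasten to the extracellular matrix and LRRC33 fastens to the surface of microglia and other myeloid cells. Integrins, thrombospondin and proteases release the ligand. It then binds the type II receptor Tgfbr2, which phosphorylates the type I receptor Tgfbr1, and Smad proteins carry the signal to the nucleus. In the brain this pathway is known for maintaining the homeostatic state of microglia, for the stability of vessels and for scar formation after injury.

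Total counts were 42929862 to 48684674 per library in 2018 and 27845562 to 35453257 in 2022, and libraries of one group differed in tissue content. The astrocyte marker Gfap and the macrophage marker Cd68 matched the injury labels, with log2 fold changes of 3.72 (SE 0.172) and 3.62 (SE 0.212). Summed choroid plexus markers were 846 FPKM in sham 1 against 12.7 and 42.6 in sham 2 and 3, and 936 to 1120 in TBI. In 2022 they were 13.4 TPM in TBI A and 20.3 in zileuton C against 811 to 2690 in the other libraries (the columns of 2022 do not show which replicate they hold, and are named A, B and C). TBI 3 had the highest fibroblast and meningeal marker sum of 2018, and TBI A of 2022 had an oligodendrocyte marker sum of 4060 TPM against 7160 to 8960 in the other 5. At an adjusted p under 0.05 in edgeR, 8 members were higher after injury with all 6 libraries. The number was 6 without sham 2, 9 without TBI 2 and 7 without any one of the others. Over all genes tested, 3286 of 19536 were higher with all libraries, 2590 of 20198 without sham 2 and 2922 of 20083 without TBI 2. Without any one of the others, 2402 to 2992 genes were higher.

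The promoters of the 4 members that at least doubled with an adjusted p under 0.05 after injury are shown because these genes rose together while differing in base composition. RefSeq (GRCm38.p6) held promoters for 8 of the 10 members, and not for Tgfb3 and Tgfbr3. Each sequence runs 5′ to 3′ on the strand of its gene and ends before the gene's start in both RefSeq and GENCODE, and capitals mark the only match to a searched motif. For Tgfbi the GENCODE start lies inside the RefSeq promoter, so the last 63 bases before the RefSeq start are left out.
Tgfb1, chr7:25686752-25687001, plus strand: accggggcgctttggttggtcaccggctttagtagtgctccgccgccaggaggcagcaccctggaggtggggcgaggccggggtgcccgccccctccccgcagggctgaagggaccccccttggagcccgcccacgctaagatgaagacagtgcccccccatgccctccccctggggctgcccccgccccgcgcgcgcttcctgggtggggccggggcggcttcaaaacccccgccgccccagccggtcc
Tgfbr2, chr9:116175364-116175613, minus strand: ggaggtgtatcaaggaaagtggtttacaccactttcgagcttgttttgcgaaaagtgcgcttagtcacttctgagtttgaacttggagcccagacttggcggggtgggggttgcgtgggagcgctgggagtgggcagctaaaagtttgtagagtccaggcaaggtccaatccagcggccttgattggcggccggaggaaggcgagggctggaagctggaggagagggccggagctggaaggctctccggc
Lrrc33, chr16:32165595-32165844, minus strand: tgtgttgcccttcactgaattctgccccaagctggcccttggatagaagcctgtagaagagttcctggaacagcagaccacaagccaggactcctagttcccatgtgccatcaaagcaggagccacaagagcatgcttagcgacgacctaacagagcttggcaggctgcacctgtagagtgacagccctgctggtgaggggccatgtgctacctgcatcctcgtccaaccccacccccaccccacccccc
Tgfbi, chr13:56609336-56609522, plus strand: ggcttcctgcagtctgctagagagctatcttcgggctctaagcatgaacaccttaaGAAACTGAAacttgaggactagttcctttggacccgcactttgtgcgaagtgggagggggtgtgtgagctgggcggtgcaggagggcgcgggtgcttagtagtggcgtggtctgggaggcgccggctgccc
The 250 bases before the RefSeq start were 75.2% G and C with 21 CpG dinucleotides in Tgfb1 and 58.4% with 3 CpG in Lrrc33, against medians of 52.4% and 6 CpG over 32851 promoters. Tgfbr2 (58.4%, 12 CpG) and Tgfbi (62.4%, 15 CpG) lay between them in CpG. The 187 bases shown for Tgfbi were 59.4% G and C with 9 CpG. Both strands of the 250 bases were searched for AP-1 (TGANTCA), the Smad palindrome (GTCTAGAC), PU.1 (GAGGAAGT) and IRF (GAAANNGAA). The IRF letters occurred once, in Tgfbi, and occur in 7.13% of all promoters. The AP-1, PU.1 and Smad letters occur in 6.75%, 2.44% and 0.167% of all promoters and in none of the windows of the 8 members.

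The first comparison asked how expression differed between sham and injured brain. After injury, 8 of the 10 members were higher than in sham and none was lower. The largest rises were in Tgfbi, Tgfbr2 and Tgfb1. Over all 19536 genes tested, 16.8% were higher past the same threshold, an adjusted p under 0.05 in edgeR's quasi-likelihood test with Benjamini-Hochberg adjustment over all genes. All genes tested had a median log2 fold change of 0.017, and the members one of 1.16. In 8 members every TBI library lay above every sham library, a pattern found in 24.6% of the genes tested. In bulk tissue a change in the number of cells of a type and a change in RNA per cell cannot be told apart.

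**Figure D1:**
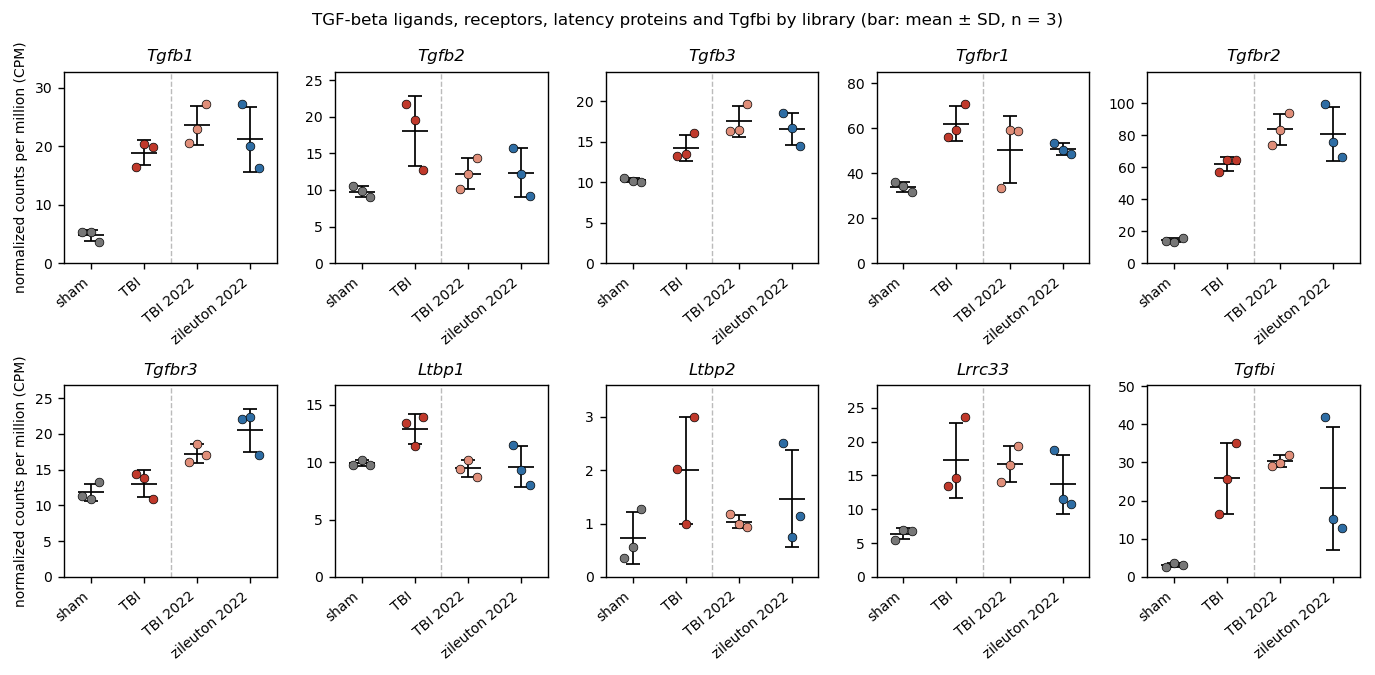
Normalized counts (CPM) of the 10 members in every library (points, 3 per group), with the mean and SD as bars; the dashed line separates the 2018 libraries from those of 2022, which were processed separately. The TBI points stand above all sham points in every panel except Tgfbr3 and Ltbp2, and the zileuton points overlap the TBI points of 2022 in every panel.

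Of the ligands, Tgfb1, the form best known from immune cells, rose most. Its level was 5.35, 5.25 and 3.70 CPM (counts scaled to the library total and TMM factor) in sham and 16.5, 20.3 and 19.9 in TBI, from 176 to 243 and 813 to 989 counts. The groups were far apart, with a small spread within each. The fold change was 3.97 (95% confidence interval 3.04 to 5.18), with a log2 fold change of 1.99 (SE 0.170, edgeR adjusted p = 6.84e-05).

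Tgfb2, a ligand made by astrocytes and neurons among other cells, was at 10.5, 9.79 and 9.05 CPM in sham and at 21.8, 19.6 and 12.7 in TBI. All TBI libraries were above sham, but TBI 3 stood much nearer to sham than the other two. The log2 fold change was 0.89 (SE 0.190, edgeR adjusted p = 0.00883). Tgfb3 went from 10.5, 10.2 and 10.0 CPM to 13.2, 13.5 and 16.1, a log2 fold change of 0.47 (SE 0.119, edgeR adjusted p = 0.0180), with a narrow gap between the groups. The Tgfb3 gene overlaps Ttll5, Gm37804 and Gm48008 on the opposite strand, and Tgfb2 overlaps Gm26169 and Gm29491, also on the opposite strand. Ltbp2 overlaps D030025P21Rik on the opposite strand. Tgfbr3 overlaps Gm8145 on the opposite strand and Gm42900, Gm43422 and Gm43423 on its own, and Ltbp1 overlaps Gm6276 on its own. The strand setting of the counting is not given, so reads of the overlapping genes cannot be told apart. Tgfb3 lost its call without sham 2 (adjusted p = 0.0569) or sham 3 (adjusted p = 0.0724), and Tgfb2 lost it in limma on log2(FPKM + 1) without a filter (adjusted p = 0.0646).

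The make-up of the ligand pool differed between sham and TBI. Per length of transcript, in FPKM, the ligands summed to 5.84, 5.66 and 5.18 in sham and to 11.1, 11.9 and 10.9 in TBI. Tgfb1 made up 17.7%, 18.1% and 14.0% of that sum in sham and 29.9%, 35.2% and 36.3% in TBI, a gain of 17.2 percentage points. Tgfb3 made up 53.6% ± 2.38 (SD) in sham and 38.1% ± 4.78 in TBI, while the share of Tgfb2 was 29.8% ± 0.449 and 28.1% ± 7.29. The shares of Tgfb1 and Tgfb3 did not overlap between the groups (two-sided exact permutation test, p = 0.1 for each, the smallest that 3 against 3 libraries allow). On unscaled CPM the gain of Tgfb1 was 17.9 points.

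**Figure D2:**
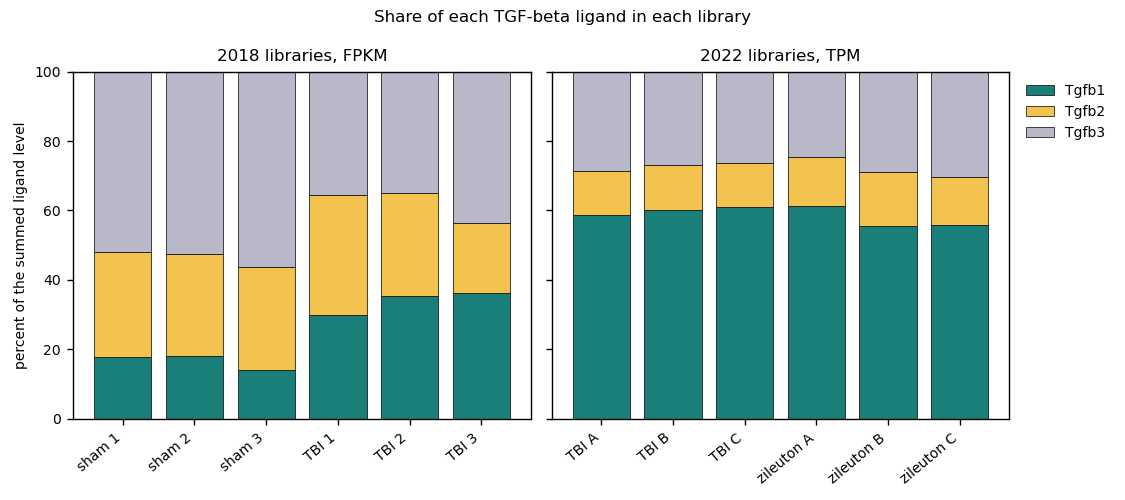
Share of Tgfb1, Tgfb2 and Tgfb3 in the summed ligand level of each library, in percent of FPKM (2018, left) or TPM (2022, right). Tgfb1 holds 14.0% to 18.1% in sham and 29.9% to 36.3% in TBI, and 55.5% to 61.2% in the 2022 libraries, whose table divided Tgfb1 by a much shorter length.

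Among the receptors, Tgfbr2, the ligand-binding type II receptor, rose more than 4-fold. It measured 13.7, 13.4 and 15.6 CPM in sham and 56.7, 64.5 and 64.6 in TBI, with little spread within either group. The fold change was 4.34 (95% confidence interval 3.72 to 5.06), with a log2 fold change of 2.12 (SE 0.0974, edgeR adjusted p = 5.67e-06). Tgfbr1, the kinase that Tgfbr2 activates, measured 36.1, 34.2 and 31.6 CPM in sham and 56.1, 59.2 and 71.0 in TBI. Its groups were also apart, with a log2 fold change of 0.87 (SE 0.105, edgeR adjusted p = 0.000456).

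In FPKM, Tgfbr2 stood at 0.303, 0.313 and 0.395 of the level of Tgfbr1 in sham and at 0.806, 0.870 and 0.727 in TBI. This ratio did not overlap between the groups (two-sided exact permutation test, p = 0.1, the smallest possible). Its size depends on the length used for each gene, so it does not show which receptor was more abundant. In the 2022 libraries, in TPM, the ratio was 2.53, 1.56 and 1.84 in TBI and 2.14, 1.68 and 1.58 with zileuton. Tgfbr3, or betaglycan, a coreceptor that presents ligand and above all TGF-β2, measured 11.3, 10.9 and 13.2 CPM in sham and 14.4, 13.8 and 10.9 in TBI. These ranges overlapped, and the log2 fold change of 0.15 (95% confidence interval -0.17 to 0.47, edgeR adjusted p = 0.488) did not pass the threshold.

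Of the proteins that hold latent TGF-β, Lrrc33, which tethers it on myeloid cells, measured 5.50, 6.87 and 6.84 CPM in sham and 13.4, 14.7 and 23.6 in TBI. All TBI libraries lay above sham and TBI 3 was highest. The fold change was 2.68 (95% confidence interval 1.90 to 3.79), with a log2 fold change of 1.42 (SE 0.220, edgeR adjusted p = 0.00175).

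The matrix-bound Ltbp1 changed little, from 9.79, 10.2 and 9.79 CPM to 13.4, 11.4 and 13.9. Its log2 fold change of 0.38 (SE 0.121, edgeR adjusted p = 0.0469) was close to the threshold, and the call was lost in 7 of 11 other settings and without any library but TBI 2 (adjusted p up to 0.220). Ltbp2, which binds fibrillin fibres rather than latent TGF-β, was the scarcest member. It had 16, 26 and 61 counts in sham and 100, 48 and 129 in TBI, or 0.355, 0.562 and 1.28 CPM against 2.03, 0.985 and 2.99. TBI 2 fell below sham 3, and the log2 fold change of 1.44 (SE 0.535, edgeR adjusted p = 0.0767) did not pass, although DESeq2 gave an adjusted p of 0.0221 and edgeR without sham 3 gave 0.0317.

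Tgfbi, a secreted adhesion protein of the extracellular matrix, rose most of all members. It measured 2.53, 3.59 and 3.03 CPM in sham and 16.6, 25.7 and 35.1 in TBI, from 114 to 166 counts and 819 to 1513 counts. The TBI libraries were spread widely but all far above sham. The fold change was 8.45, with a log2 fold change of 3.08 (SE 0.272, 95% confidence interval 2.46 to 3.70, edgeR adjusted p = 8.12e-05). In the two-sided equal-variance test on FPKM, Tgfb2, Lrrc33 and Tgfbi did not pass, at adjusted p of 0.115, 0.0877 and 0.0600.

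**Figure D3:**
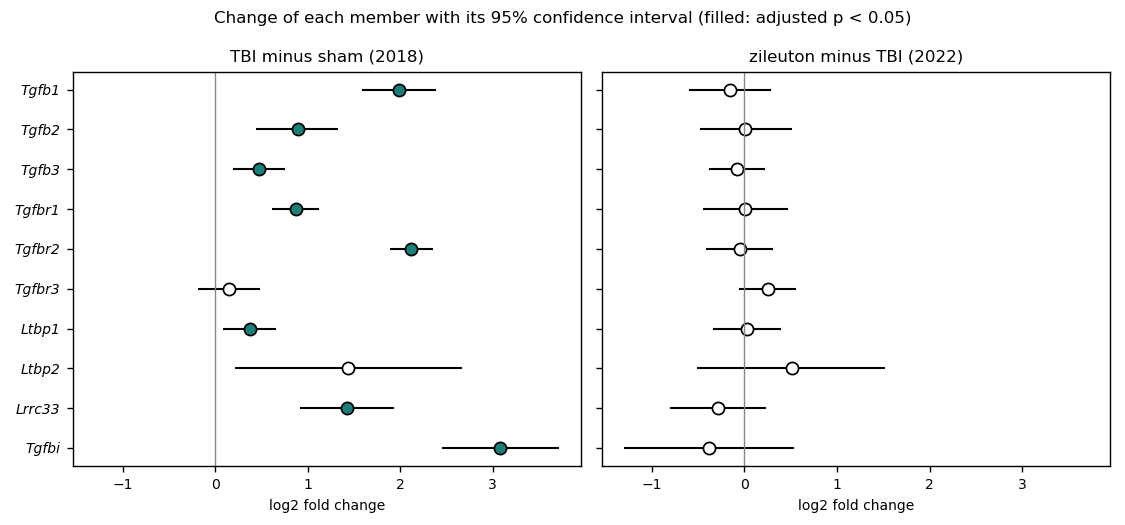
Log2 fold change of each member with its 95% confidence interval for TBI minus sham (left) and zileuton minus TBI of 2022 (right); filled points have an adjusted p under 0.05. After injury 8 points are filled, from 0.38 for Ltbp1 to 3.08 for Tgfbi, and with zileuton none is filled and every interval includes 0.

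The order of the levels changed with injury. In sham, Tgfbr1 stood first at 5.10 FPKM ± 0.318 (SD, n = 3) and Tgfb3 followed at 2.98 ± 0.0592. Tgfbr3, Tgfbr2, Tgfb2 and Lrrc33 came next at 1.77 to 1.51, each overlapping its neighbour in range, and Tgfb1, Ltbp1 and Tgfbi likewise lay together at 0.928 to 0.794. Ltbp2 was last at 0.0881 ± 0.0588. In TBI, Tgfbr1 was still first at 9.66 ± 1.13, above Tgfbr2 at 7.70 ± 0.621 without overlap. That gap rested on the lengths by which FPKM divides counts. In CPM the TBI means of Tgfbr1 and Tgfbr2 were 62.1 and 61.9, with overlapping ranges. From Tgfbr2 down through Tgfbi, Tgfb3, Lrrc33, Tgfb1, Tgfb2 and Tgfbr3 every neighbouring pair overlapped, and Ltbp1 at 1.23 ± 0.103 and Ltbp2 at 0.248 ± 0.121 closed the order. By rank of mean level, Tgfbi moved from the 9th to the 3rd place.

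Markers of several cell types also differed between sham and TBI. All 12 microglia and macrophage markers rose, with a median log2 fold change of 2.99, and their sum went from 151 to 189 FPKM in sham to 1170, 1370 and 1930 in TBI 1, 2 and 3. C1qa, C1qb and Tyrobp, the most abundant of them, had log2 fold changes of 3.25, 3.03 and 3.25. The members with the largest rises, Tgfbr2, Tgfb1 and Tgfbi, had log2 fold changes of 2.12, 1.99 and 3.08. All 6 monocyte and neutrophil markers tested rose, and their sum went from 0.883 to 1.97 FPKM to 29.0, 47.6 and 106. Ly6g and Mpo of this list had at most 6 and 10 counts in any library, and whether neutrophils were present was not tested. In CPM, 5 of the 10 members (Tgfb3, Tgfbr1, Tgfbr2, Lrrc33 and Tgfbi) had the same order over the 3 TBI libraries as this sum. Tgfb2 and Tgfbr3 had the opposite order, and Tgfb1, Ltbp1 and Ltbp2 had other orders. For Tgfbr2 the order rested on 64.5 against 64.6 CPM, and in FPKM it measured 6.99, 8.18 and 7.92. How many of all genes had this order was not counted. The part of these cells in the rises was not tested.

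Fibroblast and meningeal markers summed to 30.7 to 38.0 FPKM in sham and to 79.3, 42.2 and 201 in TBI, and 5 of 8 rose. Ltbp1 and Ltbp2 had the same order over the TBI libraries, lowest in TBI 2 and highest in TBI 3. In these counts of markers, rose and lower mean past an adjusted p of 0.05 in edgeR. Over all genes tested, 16.8% were higher and 11.2% lower past it. Endothelial markers rose in 6 of 8 genes with a median of 0.70, pericyte markers in 3 of 8, astrocyte markers in 6 of 8, oligodendrocyte markers in 5 of 7 and their precursors' in 4 of 5. Neuronal markers were lower in 4 of 8 genes, red blood cell genes were lower in 3 of 5, T cell markers rose in 1 of 4 and choroid plexus markers in 1 of 7. By direction alone, all 7 choroid plexus, 8 pericyte and 8 astrocyte markers were higher, and all 8 neuronal markers were lower. T cell markers were split, 2 higher and 2 lower. None of these associations with the members was tested.

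**Figure D4:**
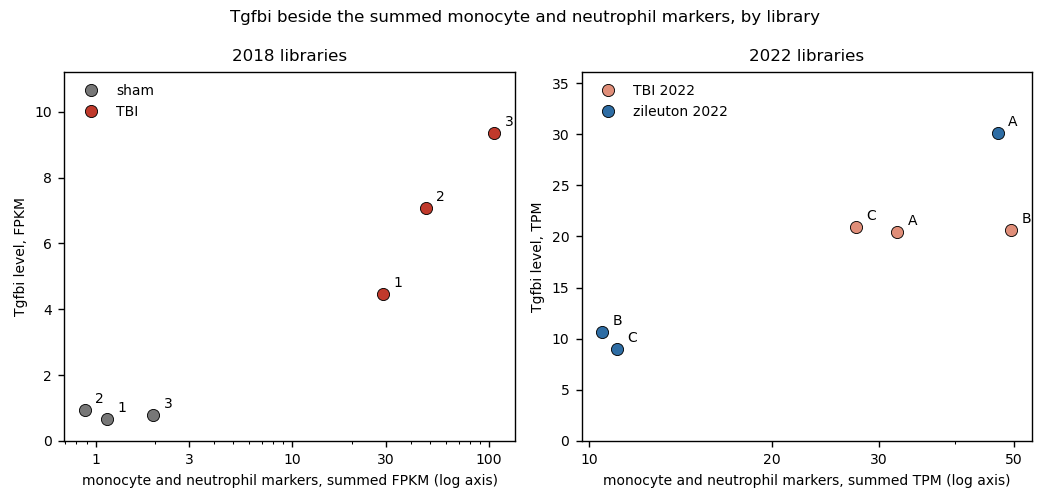
Tgfbi level against the sum of the monocyte and neutrophil markers (log axis) in each library, in FPKM for 2018 (left) and TPM for 2022 (right), with the replicate beside each point. Tgfbi is highest in TBI 3 on the left and in zileuton A on the right, and zileuton B and C, with marker sums of 10.5 and 11.1 TPM, have the lowest Tgfbi of 2022. In TBI A, B and C of 2022 the marker sums are 32.1, 49.5 and 27.5 TPM, while Tgfbi is nearly level at 20.4, 20.6 and 20.9.

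Genes around the members are described by lists chosen for their role. Of 20 genes of latency and activation, 12 rose and none fell, at a median log2 fold change of 0.62. Thbs1, a thrombospondin that can free latent TGF-β, went from 2.38 to 3.49 CPM in sham to 27.5, 22.0 and 85.3 in TBI (log2 fold change 3.85, SE 0.514, edgeR adjusted p = 0.000797). The protease Mmp9 rose by 2.07 (SE 0.410). Of the abundant integrin chains, Itgb5 rose by 1.84 (SE 0.0765) and Itgb1 by 0.82 (SE 0.0775), whereas Itgav, the partner chain in the TGF-β-releasing integrins, had a log2 fold change of -0.03 (SE 0.0849, edgeR adjusted p = 0.806).

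Of 13 coreceptors and extracellular modulators, 8 rose and none fell, at a median of 0.93. Cd109, a membrane protein that binds TGF-β and restrains its signal, rose from 1.38 to 1.82 CPM in sham to 8.70, 12.6 and 12.4 (log2 fold change 2.87, SE 0.213, edgeR adjusted p = 3.27e-05). The small proteoglycans Dcn, Bgn and Lum rose by 1.23 to 1.99. Dcn and Lum were lowest in TBI 2 and highest in TBI 3. Both are also on the fibroblast marker list, whose sum had the same order and includes them.

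Of 20 genes of the Smad machinery 1 rose, 2 fell and 17 did not pass, at a median of -0.01. Over all genes tested 11.2% were lower past the threshold, beside the 16.8% that were higher. The gene that rose was Tgif1, a repressor of Smad targets, going from 1.07 to 1.15 CPM to 7.13 to 7.45 (log2 fold change 2.70, SE 0.173, edgeR adjusted p = 1.78e-05). Ppm1a, a phosphatase known to act on Smad2 and Smad3, fell by 0.40 (SE 0.0701), and Zfyve9, the anchor protein SARA, fell by 0.31 (SE 0.0851). Ski and Strap, both abundant, had log2 fold changes of 0.05 and -0.12 that did not pass.

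Of 22 genes known to respond to TGF-β, 13 rose and 2 fell, at a median of 1.07. Timp1, an inhibitor of matrix proteases, rose by 3.46 (SE 0.536). Sparc, the most abundant, rose from 220, 265 and 241 CPM to 562, 655 and 668. Klf10, an early TGF-β-inducible factor, went the other way, from 45.9, 50.6 and 43.7 to 26.4, 24.5 and 30.4 CPM, and fell by 0.78 (SE 0.103, edgeR adjusted p = 0.000724). Tsc22d1 fell by 0.22 (SE 0.0708), while Id2 had a log2 fold change of -0.23 and did not pass. Col1a1 and Col1a2 of this list are also fibroblast markers.

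Of 15 genes whose expression in microglia is known to depend on TGF-β, 13 rose and none fell, at a median of 0.96. Fcrls rose by 2.86 (SE 0.284), Olfml3 by 2.32 (SE 0.154) and Cx3cr1 by 1.91 (SE 0.0812). The general microglia and macrophage markers had a median of 2.99. Of 17 other ligands of the superfamily 14 were tested, 4 rose and 1 fell, at a median of -0.01. Gdf15, a stress-induced ligand, rose by 2.17 (SE 0.356), Bmp6 by 0.84 (SE 0.173) and Gdf11 by 0.75 (SE 0.116). Bmp3 fell by 0.87 (SE 0.211), and Inha, the inhibin chain, had a log2 fold change of -0.10 and did not pass.

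**Figure D5:**
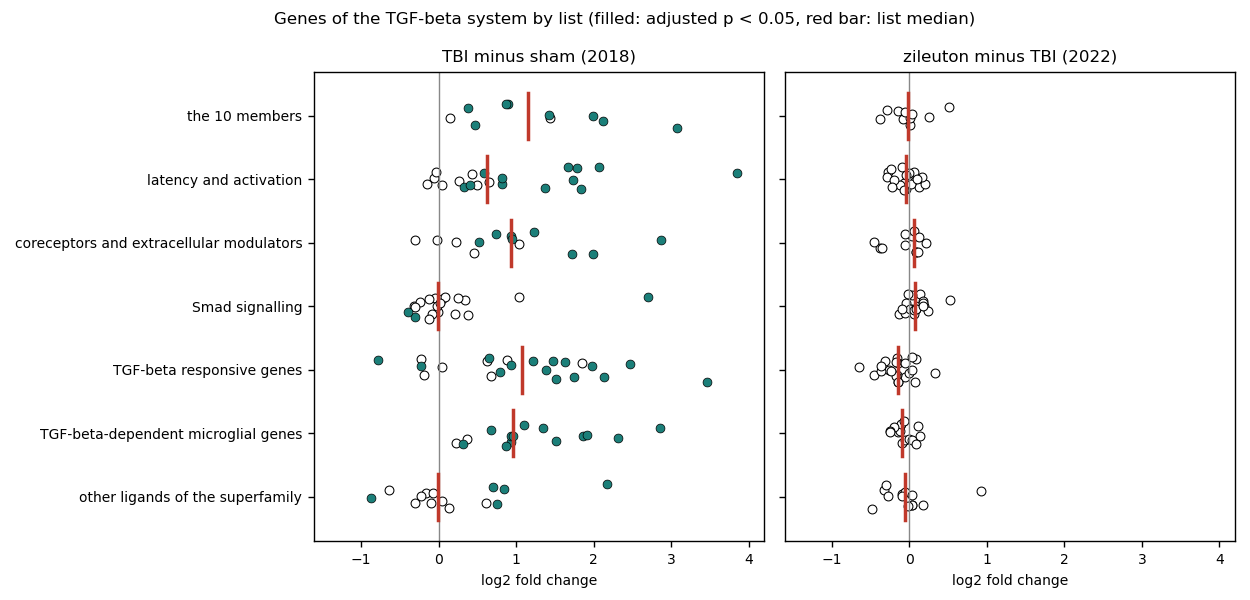
Log2 fold change of each tested gene in the 10 members and in 6 lists of the TGF-β system, for TBI minus sham (left) and zileuton minus TBI of 2022 (right); filled points have an adjusted p under 0.05 and red bars are list medians. On the left the medians run from -0.01 for Smad signalling and the other ligands to 1.16 for the members, and on the right they lie between -0.15 and 0.07 with no filled point.

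The genes whose profile over the 6 libraries of 2018 was most like that of Tgfb1, by Pearson correlation of log2 CPM, were Cd79b (0.9996), Cnn3 (0.999), Gna13 (0.9985), Scg3 (0.9985) and Tpcn2 (0.9982). These libraries share the contrast of sham and TBI, so a gene that is higher in TBI can correlate with Tgfb1 through that contrast alone. The log2 fold changes of these genes ran from 0.26 for Scg3 to 2.83 for Cd79b.

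The second comparison asked whether zileuton altered gene expression in the injured brain. No member passed an adjusted p of 0.05 in edgeR, where 0% of the 17363 genes tested passed, and none passed an unadjusted p of 0.05, where 6.83% passed. DESeq2 called 27 genes, none of them a member. The members had a median log2 fold change of -0.02, beside 0.003 for all genes tested, 5 were higher and 5 lower, and every member overlapped between the groups.

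Tgfb1 measured 20.6, 22.9 and 27.2 CPM in TBI A, B and C and 27.3, 20.0 and 16.3 in zileuton A, B and C. Its log2 fold change was -0.15 (95% confidence interval -0.59 to 0.28). Tgfb2 measured 10.1, 12.2 and 14.4 against 15.8, 12.2 and 9.13, and its interval ran from -0.47 to 0.50. For both ligands zileuton A was the highest treated library and zileuton C the lowest. Tgfb3 measured 16.3, 16.5 and 19.7 against 18.5, 16.7 and 14.5, with an interval of -0.37 to 0.21. In TPM, Tgfb1 made up 58.7%, 60.0% and 61.1% of the ligands in TBI and 61.2%, 55.5% and 55.9% with zileuton (two-sided exact permutation test, p = 0.4).

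Tgfbr2 measured 74.1, 82.9 and 93.6 CPM in TBI and 99.7, 75.8 and 66.5 with zileuton, a log2 fold change of -0.05 (95% confidence interval -0.40 to 0.30). Tgfbr1 measured 33.5, 59.1 and 59.0 against 53.6, 50.4 and 48.4, an interval of -0.44 to 0.46. The low library, TBI A, was also the one with the low oligodendrocyte sum, and without it Tgfbr1 had a log2 fold change of -0.22 (edgeR unadjusted p = 0.0309, adjusted p = 0.784 at the least over the 6 fits that left out a library). Tgfbr3 was nearest to the threshold of all members, at 16.0, 18.6 and 17.1 against 22.1, 22.3 and 17.0 CPM. Its log2 fold change was 0.25 (95% confidence interval -0.05 to 0.55, edgeR unadjusted p = 0.0917, adjusted p = 0.713), and 0.37 without zileuton C (unadjusted p = 0.0123, adjusted p = 0.964).

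Lrrc33 measured 14.1, 16.6 and 19.4 CPM in TBI and 18.7, 11.5 and 10.8 with zileuton, a log2 fold change of -0.29 (95% confidence interval -0.79 to 0.22). Ltbp1 measured 9.43, 10.2 and 8.70 against 11.5, 9.33 and 8.02, an interval of -0.33 to 0.39. Ltbp2 had only 26 to 35 counts in TBI and 76, 24 and 33 with zileuton, and its log2 fold change of 0.51 had an interval of -0.50 to 1.51. Tgfbi was tight in TBI, at 29.1, 29.8 and 32.0 CPM, and wide with zileuton, at 41.8, 15.1 and 12.8. Its log2 fold change was -0.38 (95% confidence interval -1.29 to 0.52, edgeR adjusted p = 0.828).

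Zileuton A thus lay above zileuton B and C for 9 of the 10 members, all but Tgfbr3. The monocyte and neutrophil markers summed to 47.0 TPM in zileuton A and to 10.5 and 11.1 in B and C, against 27.5 to 49.5 in TBI, with Ly6g at 0 counts in all 6 libraries. The microglia and macrophage sum was 4210 TPM in zileuton A and 2950 and 2620 in B and C, against 2670 to 4270 in TBI. Fibroblast and meningeal markers (381, 276 and 193 TPM in zileuton A, B and C) and astrocyte markers (5330, 4090 and 4270) were also highest in A. So were the sums of choroid plexus, oligodendrocytes, their precursors and pericytes. Neuronal markers (3540, 3850 and 3880), T cell, endothelial and red blood cell sums were not. The share of all genes highest in zileuton A was not counted. Without zileuton A, 3 members passed an unadjusted p of 0.05 in edgeR, as did 1909 of the 17632 genes tested in that fit. Tgfbi was then at a log2 fold change of -1.12 (edgeR unadjusted p = 1.48e-05, adjusted p = 0.261), Lrrc33 at -0.58 (unadjusted p = 0.00587, adjusted p = 0.339) and Tgfb1 at -0.38 (unadjusted p = 0.0388, adjusted p = 0.443). No gene of the table passed an adjusted p of 0.05 in that fit. Without zileuton B or C, Tgfbi was at -0.15 and -0.09 and Lrrc33 at -0.18 and -0.14. Tgfb1 was then at -0.11 and 0.01.

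Of the lists, none had a gene past an adjusted p of 0.05 with zileuton. At an unadjusted p of 0.05, 4 of their 102 tested genes passed, beside 6.83% of all genes tested. Smurf2 (log2 fold change 0.24) and Tgif2 (0.52) of the Smad list were higher, and Id1 (-0.65) and Id2 (-0.17) of the responsive list were lower. Both Id genes, which encode inhibitors of transcription factors, had every zileuton library below every TBI library, at 12.3, 9.99 and 5.33 against 13.9 to 14.9 CPM for Id1. This held for 6 of the 102 list genes and for 7.04% of all genes tested. Smurf2, Tgif2 and Id1 were named after their values were seen. List medians were -0.04 for latency and activation, 0.06 for coreceptors and modulators, 0.07 for the Smad list, -0.15 for responsive genes, -0.10 for TGF-β-dependent microglial genes and -0.05 for the other ligands. Among the most abundant genes of these lists, Itgb5 had a log2 fold change of 0.02, Itgb1 of -0.12, Sparc of 0.07 and Cx3cr1 of 0.11, with overlapping groups in each.

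In TPM the order in the TBI libraries of 2022 was led by Tgfbr2 at 31.1 ± 2.14 (SD, n = 3), with Tgfb1 at 20.7 ± 2.60 and Tgfbi at 20.6 ± 0.252 next and overlapping, and Ltbp2 last at 0.747 ± 0.463. With zileuton every neighbouring pair from Tgfbr2 at 31.4 ± 7.22 to Tgfb2 at 4.91 ± 1.26 overlapped. The scales of the tables cannot be set side by side: relative to Tgfb3, counts of Tgfb1 were divided by a length of 1.49 in 2018 and 0.609 in 2022, and for Ltbp2 the length used in 2022 ranged from 0.515 to 1.39 between libraries. For Tgfbr2 the relative lengths were 2.42 in 2018 and 1.44 in 2022, and for Tgfbr1 1.93 and 1.64.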

How the data were processed

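Poly(A)-selected RNA of mouse brain was sequenced as paired ends. The authors deposited raw counts and FPKM per gene for the sham and TBI libraries of 2018, and estimated counts and TPM for the TBI and zileuton libraries of 2022. Per the labels the submitters' processing notes name HISAT2, featureCounts, Subread, DESeq2 and build GRCm39, without versions. Strand setting and transcript annotation are not given in the sources used here. Of the 2018 counts from 1 to 20, 62.3% to 64.4% were even, and whether both mates of a pair were counted is not given. Of the 2022 values 13.7% were not whole and were rounded.

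Each batch was fitted alone. Genes passing filterByExpr (19536 and 17363) were tested with TMM factors and the quasi-likelihood test of edgeR 4.0.16 in R 4.3.3, with Benjamini-Hochberg adjustment over all genes tested. DESeq2 1.42.0, limma 3.58.1 on log2(FPKM or TPM + 1 or + 0.1) with and without a minimum mean of 0.5, an equal-variance test on FPKM or TPM, other scalings and filters, a replicate block, and leaving out each library were alternatives. Removing a length trend was added after seeing the data. The scripts were tested on simulated data. Confidence intervals are 95% and cover the fitted spread. Promoters are from RefSeq GRCm38.p6 by symbol. Gene overlaps are from GENCODE on GRCm38, another build than the authors'.

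The members and lists were chosen with earlier results of these data known. Named were all members, the 3 most abundant genes of each list, up to 2 with the largest rise and fall among called genes after injury, the most abundant markers, Gfap and Cd68, and the 5 genes most like Tgfb1. Values of some genes that this rule names are not reported here.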

Additional observations from a re-analysis of the deposited data

How the results depend on the processing

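Depth limited Ltbp2 most, with 16 to 129 counts in a library. With 3 libraries a group, no exact permutation test could go below p = 0.1, and intervals of the zileuton comparison were wide enough to hold a 2-fold fall of Tgfbi. After injury every member kept its direction under the 11 other settings that gave it a value and without each library. Over single members, other settings left 93 values on the same side of the threshold, took 11 below it and 3 past it, and leaving out a library left 51, took 7 below and 2 past. The equal-variance test, which 9 members entered, called 5 of them. All of these were higher. Over all genes it called 2625 of 15873 either way, 1761 of them higher. The main test, under another filter, called 5479 of 19536, 3286 of them higher. Tgfb1's gain in share of the ligands after injury was 15.9 to 19.2 points over the alternatives, and its difference with zileuton -4.23 to -1.43 points.

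Whether the replicate numbers pair the libraries cannot be decided here, because each deviation is taken from a mean of only 3 libraries. Deviations of same-numbered libraries correlated at -0.023, -0.094 and -0.033 after injury and at -0.28, 0.063 and -0.282 with zileuton. Those of differently numbered libraries ran from -0.104 to 0.13 after injury and from -0.073 to 0.313 with zileuton. A fit with a replicate block called 8 members after injury, with Ltbp1 no longer past the threshold (edgeR adjusted p = 0.102) and Ltbp2 now past it (edgeR adjusted p = 0.0435), and turned Tgfb2 with zileuton to a log2 fold change of -0.0050.

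With zileuton, 0 members passed an unadjusted p of 0.05 in every setting that kept all libraries, and 0 to 3 did without a library. Over all genes, 0 passed an adjusted p of 0.05 in edgeR, against 27 in DESeq2, 4 in edgeR without a filter, and 4 and 3 in limma with pseudocounts of 1 and 0.1. At an unadjusted p of 0.05 there were 1186 genes, 729 with the replicate block and 689 to 1909 without a library. Several values changed sign, among them Ltbp2, whose main log2 fold change was 0.507. Without the length trend, Tgfb2 was at -0.0101, Tgfbr1 at -0.0313 and Ltbp1 at -0.0572. Library totals alone gave Tgfbr1 -0.0004. The equal-variance test gave Tgfbr2 0.0132 and Ltbp2 -0.135, and limma gave Ltbp2 -0.0374 with a pseudocount of 1, with or without the filter, and -0.0341 with 0.1. Leaving out a library, log2 fold changes ran from -0.376 to 0.008 for Tgfb1, -0.199 to 0.195 for Tgfb2, -0.164 to 0.0112 for Tgfb3, -0.217 to 0.136 for Tgfbr1, -0.231 to 0.0753 for Tgfbr2, -0.124 to 0.146 for Ltbp1 and -0.118 to 0.824 for Ltbp2, and from -1.12 to -0.0873 for Tgfbi and -0.581 to -0.136 for Lrrc33, which kept their sign. The cause of these changes was not tested.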
